A study of Mus musculus with 2 samples.

Results

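The DNAJ (HSP40) family of co-chaperones was described in samples labelled as mouse blood on a pair of 1-colour Agilent arrays, heat and control, with 1 sample each. Members were all probes outside the array controls whose gene name in the files was Dnaja, Dnajb or Dnajc followed by a number. They came to 99 probes for 45 genes, of 56605 probes for 37325 genes in all. Subfamily A had 4 genes with 8 probes, subfamily B had 13 genes with 32 probes, and subfamily C had 28 genes with 59 probes. Per the labels, the heated sample was kept at 37 °C in a water bath for 1 h as pretreatment and at 38.5 °C for a further 1 h. The labels do not give the temperature or duration of the control, nor a strain, age or sex for either sample, and do not say whether animals or drawn blood were heated, so the heat cannot be told apart from the pretreatment or the handling. Total RNA was prepared in the same way for both samples, with differential lysis of red cells and white cells and removal of globin transcripts. The labels mention 3 replicates per line, but 1 array per group was analysed here. The differences are therefore descriptions of these arrays, without a test or a p-value.

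J proteins deliver unfolded or folded clients to HSP70 chaperones and, through the J domain that gives them their name, stimulate HSP70 to hydrolyse ATP and close on the client. Members of subfamily A have the full domain order of the bacterial DnaJ protein, members of subfamily B lack its zinc finger region, and members of subfamily C share with it only the J domain. Several J proteins of the cytosol, with Dnajb1 as the textbook case, are induced by heat shock factor 1 when cells meet strong heat, while others serve the endoplasmic reticulum, mitochondria, ribosomes or vesicles.

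Signals below are the scanner software's processed intensity, in linear units. Differences are heat minus control of log2 signal, after each array was scaled to its 75th percentile (604 in heat and 620 in control). For a gene, the differences of its probes that were well above background on both arrays were averaged. Genes with such a probe are called measured, and there were 18685 of them on the array as a whole. Over the 28755 measured probes the correlation of log2 signals between the arrays was 0.997, which is across probes and not across replicates. The SD of differences among replicate spots was 0.084, from 283 measured probes spotted repeatedly. Each DNAJ probe had 1 spot per array, and none was saturated or an outlier. Both arrays lay on 1 slide and were read in 1 scan.

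The blood label was checked against markers of blood cells. All 6 monocyte and macrophage markers and all 4 markers of dividing cells were well above background on both arrays. Of the defining markers of other blood cells, 0 of 3 for B cells, 1 of 3 for T cells, 0 of 3 for erythroid cells, 1 of 3 for platelets and 2 of 4 for neutrophils were. The same markers were above background in heat and control. The absence of every listed B cell and erythroid marker, and of most T cell, platelet and some neutrophil markers, goes against a plain label of blood leukocytes, and the samples are called blood here only as labelled. In a bulk sample, fewer cells of a type and less RNA per cell cannot be told apart.

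Most of the DNAJ family was present in both samples. On the heat array 40 of the 45 genes had a probe well above background, and on the control array 39 did. Of all genes, 53.2% had one in heat and 51.5% in control. Any 1 probe sufficed, and the family had more probes per gene (99 for 45 genes) than the array (56605 for 37325). The shares are not adjusted for this. By subfamily, the heat array had 4 of 4 genes of A, 11 of 13 of B and 25 of 28 of C, and the control array had 3, 11 and 25. The gene detected in heat alone was Dnaja4. That call rests on the flag used: with the software's flag for positive and significant signal, 42 genes were detected in heat and 43 in control, 42 of them on both arrays, so that 1 gene was detected in control alone and 0 in heat alone. The genes below the limit on both arrays were Dnajb7, Dnajb13, Dnajc5b, Dnajc6 (auxilin, which uncoats clathrin vesicles, best known in neurons) and Dnajc22. Dnajb7, Dnajb13 and Dnajc5b are known mainly from testis, and Dnajb13 is a component of sperm flagella.

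Among the 99 probes, 78 were well above background on both arrays, 5 on the heat array alone and 0 on the control array alone, and 16 on neither. Of all probes, 3.04% were above it in heat alone and 1.24% in control alone. The lowest signal that the software called well above background was 24.9 in heat and 31.0 in control. Of the 5 DNAJ probes called in heat alone, 3 also exceeded the limit of the control array. The 16 probes on neither array had signals of 5.05 to 20.4 in heat and 6.17 to 19.3 in control, and no order is read from them.

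Subfamily signals describe the probes, because brightness depends on probe sequence as well as on RNA, and set no order between genes. Measured were 3 of 8 probes of A, 25 of 32 of B and 50 of 59 of C, so the largest share of probes is left out in A. The 3 measured probes of subfamily A had a median signal of 6116 in heat and 7384 in control. Their ranges were 6076 to 24870 in heat and 6962 to 25836 in control. For the 25 measured probes of subfamily B the median was 1023 in heat and 948 in control, and the signals ran between 37.9 and 14489 in heat and between 32.8 and 14562 in control. The 50 measured probes of subfamily C had medians of 1157 in heat and 1162 in control, and reached 25073 in heat and 26458 in control.

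**Figure D1:**
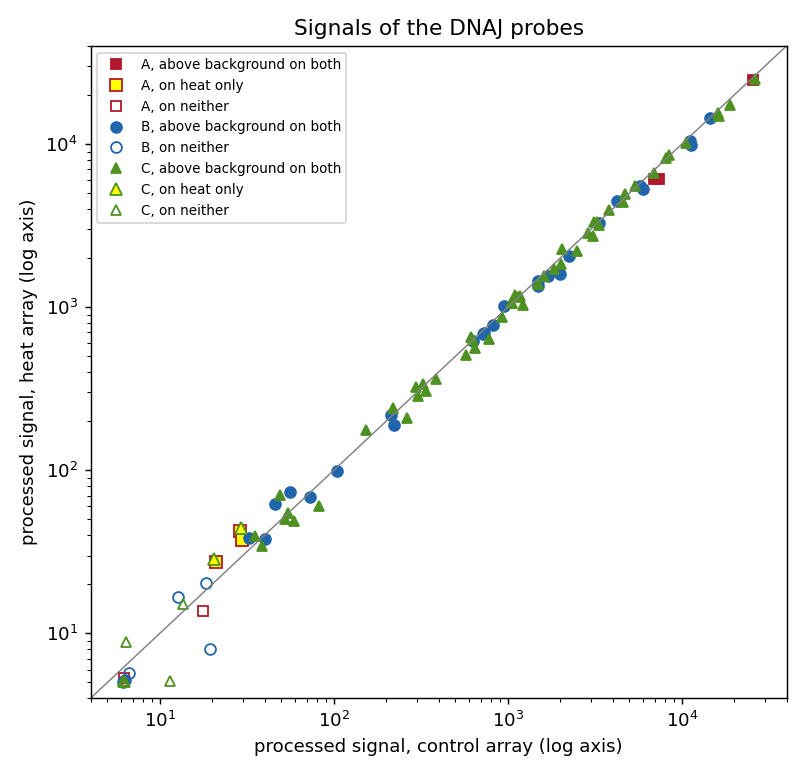
Signals of the DNAJ probes on the heat array and the control array, on log axes. The 78 probes well above background on both arrays lie close to the line of equal signal, and the 5 probes above background on the heat array alone sit at the dim end, between 27.6 and 44.4 in heat.

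The measured DNAJ genes split about evenly between the arrays. Of 39 genes, 19 were higher and 20 lower in heat, against 52.2% higher and 47.8% lower among all measured genes. With no scaling at all the split was 13 higher and 26 lower, and that of all measured genes was 41.4% higher and 58.6% lower. The median difference of the family was -0.0057, beside 0.0075 for all measured genes, and 32 of the 39 genes lay within 0.2 of 0. The differences ran between -0.26 for Dnajc27 and 0.57 for Dnajc5g. Dnajc27 was at -0.088 under normexp background correction with the 75th percentile and at -0.11 on its brighter probe. Dnajc5g was at 0.32 under that normexp setting and at 0.27 under normexp with quantile normalization. A difference of at least 0.5 was seen for 1 gene in the higher direction (1.87% of all measured genes) and for 0 in the lower direction (2.52%). The gene just inside that limit was Dnajc5g at 0.57, and the gene just outside was Dnajb8 at 0.48. A 2-fold difference was reached by 0 DNAJ genes and by 0.658% of all measured genes (0.209% higher and 0.45% lower).

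By subfamily, the median difference was -0.16 for the 3 measured genes of A, 0.014 for the 11 of B and 0.0029 for the 25 of C. All 3 genes of A were lower in heat, each on 1 measured probe, while B had 6 higher and 5 lower, and C had 13 higher and 12 lower. The range of A, -0.23 to -0.016, lay within the range of C, -0.26 to 0.57. The lowest gene of B stood at -0.16 and its highest at 0.48. With 1 array per group, and with family members that are not replicates of a condition, the subfamilies were not tested against each other. Dnaja1 was higher in heat under quantile normalization (with or without normexp background correction), in the authors' deposited table and with dim probes kept, so the shared direction of A does not hold there. Dnaja4, which is not among the 3 measured genes, was higher as well with dim probes kept.

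**Figure D2:**
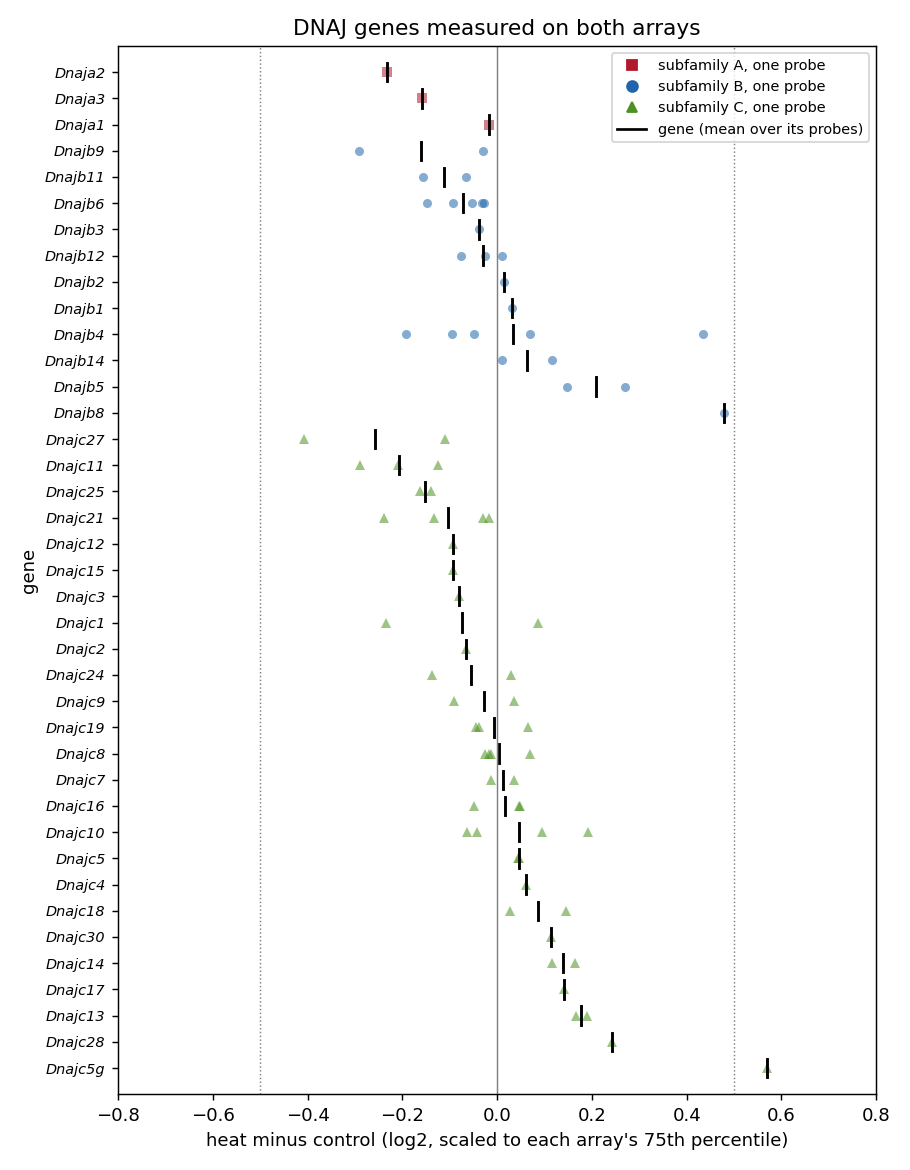
Heat minus control (log2, scaled) for the 39 measured DNAJ genes, ordered within each subfamily. Coloured points are single probes, black bars are gene means and dotted lines mark 0.5 in each direction; only Dnajc5g lies past a line.

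The size of the differences can be set beside the scanner software's own error of a spot, which does not include the spread between animals or between labelling reactions. That error, as 1 SD of a difference, had a median of 0.20 over the measured DNAJ probes and a range of 0.204 to 0.39. For DNAJ probes with signals over 1000 it stayed at 0.204, so there it is an almost fixed cutoff. It is also larger than the SD of 0.084 among replicate spots. The difference exceeded the software error for 10 of 78 probes (12.8%), 4 higher and 6 lower. Of all measured probes with 1 spot, 21.6% exceeded theirs (11.5% higher and 10.1% lower). The 10 probes belonged to 9 genes, and the other 30 genes had every measured probe within the error. The 4 higher probes were those of Dnajb8, Dnajc28 and Dnajc5g and 1 of Dnajb4. The 6 lower probes were that of Dnaja2, 1 of Dnajb9, 2 of Dnajc11, 1 of Dnajc21 and 1 of Dnajc27.

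The spread of differences widened for dim probes. The central 95% of all measured probes with signals under 100 ran between -0.74 and 0.65, that of probes between 100 and 1000 between -0.44 and 0.46, and that of brighter probes between -0.30 and 0.27. Of the measured DNAJ probes, 12, 22 and 44 fell into these bands. Outside the central range of its band lay 0 of the 78, against 5.01% of all measured probes. Both genes with the highest differences, Dnajc5g and Dnajb8, were measured by 1 probe each with signals under 100.

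**Figure D3:**
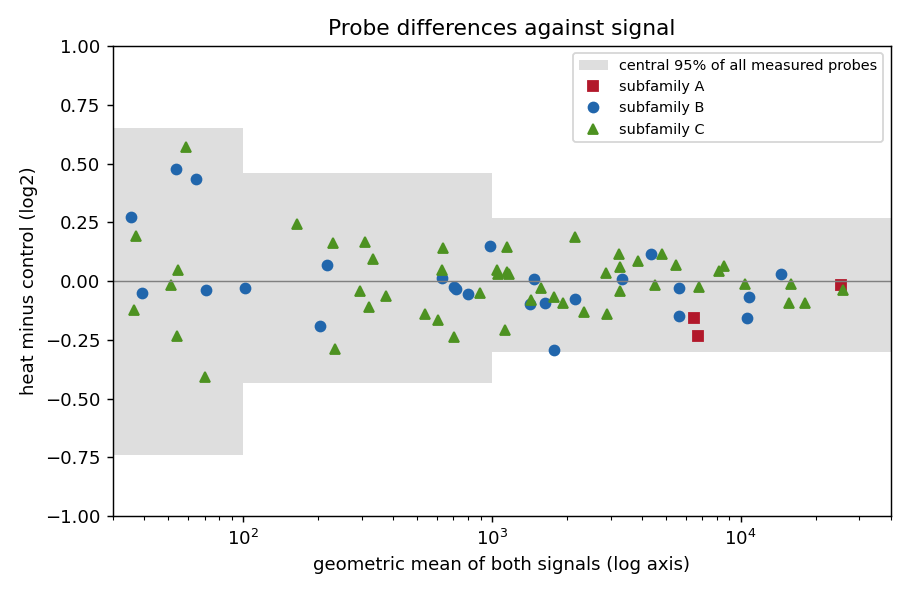
Heat minus control (log2, scaled) of the measured DNAJ probes by their mean signal (log axis), over the central 95% of all measured probes in 3 signal bands. All 78 probes sit inside the shaded range, which narrows to -0.30 to 0.27 above a signal of 1000.

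The cytosolic partners of HSP70 hold the best-known heat-inducible J proteins. Of 8 such genes on the list, 7 were measured, with 4 higher and 3 lower in heat and a median difference of 0.014. The probes that these results rest on are printed as the first 30 bases of each 60-base probe, with the position of the whole probe in mm9, the build in the file headers. Whether a position is exonic or lies in a UTR was not looked up, since no mm9 annotation was used here.
Dnaja1, bright probe, chr4:40679954-40680014, plus strand: gtggcgttcagtgtcagacctcttatgggc
Dnaja1, dim probe, chr4:40681938-40681997, plus strand: ctagacttacctggaactcagatttgcttc
Dnaja2, chr8:88062657-88062716, minus strand: agaattcatagcctgtatctatcatttaga
Dnaja4, chr9:54564061-54564120, plus strand: gttgcttaactgtcccacctgtacactttc
Dnajb1, chr8:86135660-86135719, plus strand: ggcgtgaaagtatctgttctttggagctag

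Dnajb1, the classical heat-inducible HSP40, had a signal of 14489 in heat and 14562 in control. The 2 signals lay close together, and the scaled difference was 0.031. Dnaja1, an abundant cytosolic partner of HSP70 in client folding, had 24870 in heat and 25836 in control on its bright probe, a difference of -0.016. Its other 2 probes were dim and were called above background in heat alone, with 42.2 and 27.6 in heat and 28.9 and 21.1 in control. Only the bright probe of Dnaja1 was measured on both arrays, and no direction is read from the dim ones. A further bright probe, annotated as a Dnaja1 pseudogene and outside the family rule, had 10658 in heat and 11357 in control.

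Dnaja2, which works with HSP70 in refolding, had a signal of 6116 in heat and 7384 in control, a difference of -0.23. It was the lowest of the cytosolic partners, and its probe was past the software error. Dnaja4, another cytosolic partner, had 37.1 in heat and 29.6 in control on 1 probe, where only heat was well above background. Set against the lowest detected signal of the control array, the heat signal was 1.23-fold higher. The probe's difference of 0.36 was within its software error of 0.43, so no rise is read from it. The second Dnaja4 probe was below background on both arrays.

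Dnajb4 and Dnajb5 are the closest relatives of Dnajb1. Dnajb5 had 1023 in heat and 948 in control on its brighter probe and 38.5 in heat and 32.8 in control on a dim one, and the gene's difference was 0.21. Both measured probes of Dnajb5 were higher in heat, within the software error. Its remaining probe was below background on both arrays, with 8.03 in heat and 19.3 in control, and with that probe kept the gene stood at -0.27. Dnajb4 had 5 measured probes that did not share a direction, with differences of -0.19 to 0.43 and a mean of 0.033. Its brightest probe had 1356 in heat and 1489 in control, while the probe at 0.43 had 73.9 in heat and 56.2 in control.

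Dnajb6, which keeps polyglutamine proteins from aggregating, was lower on all 5 of its probes, with a mean of -0.071. Its brighter probes had 5294 and 5506 in heat, against 6027 and 5769 in control. All 5 differences were within the software error. Dnajb2, a J protein with ubiquitin-interacting motifs, had 622 in heat and 633 in control, a difference of 0.014.

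Of the J proteins of the endoplasmic reticulum, all 10 were measured, with 4 higher and 6 lower in heat and a median of -0.052. Dnajb9 (ERdj4), a co-chaperone of BiP that is induced when unfolded proteins accumulate and restrains the stress sensor IRE1, was the lowest at -0.16. Its brighter probe had 1591 in heat and 2000 in control, a difference of -0.29 past the software error, and its dimmer probe had 99.4 in heat and 104.3 in control, a difference of -0.031. The 2 probes shared a direction and differed in size.
Dnajb9, brighter probe, chr12:45307071-45307129, minus strand: gagagattgactaatacctcattctttttg

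Dnajc25 had 565 and 508 in heat on its 2 probes, against 650 and 575 in control, and a difference of -0.15. Dnajb11 (ERdj3), which binds nascent clients of BiP, had 10421 and 9896 in heat, against 11205 and 11328 in control, and a difference of -0.11. Dnajc3 (p58IPK), an inhibitor of the kinase PERK and a BiP co-chaperone, had 1382 in heat and 1500 in control, a difference of -0.080. These 3 genes were lower on every measured probe, with every probe inside the software error.

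Dnajc1 (ERdj1), which docks BiP at ribosomes on the endoplasmic reticulum, had 3947 in heat and 3818 in control on its bright probe (0.087), and 49.2 in heat and 59.5 in control on its dim probe (-0.24). Its probes opposed each other, and its mean of -0.074 stands for neither. Dnajb12 and Dnajb14, membrane J proteins that take part in degrading misfolded proteins, had differences of -0.031 and 0.062. Dnajc10 (ERdj5), a disulfide reductase, stood at 0.045 over 4 probes of mixed sign. Dnajc16 and Dnajc18 had differences of 0.016 and 0.087.

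All 7 J proteins listed for mitochondria were measured, 3 higher and 4 lower in heat, with a median of -0.0057. Dnajc11, a partner of the complex that shapes the cristae of the inner membrane, was the lowest at -0.21. Its 3 probes had 1036, 210 and 34.4 in heat, against 1230, 263 and 38.5 in control. All 3 were lower, 2 of them past the software error.
Dnajc11, middle probe, chr4:151344979-151345038, plus strand: ctggagacctccaggggcctttatttggtc

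Dnaja3 (Tid1), the J protein of the mitochondrial matrix, had 6076 in heat and 6962 in control, a difference of -0.16. Dnajc15 (MCJ), a restrainer of respiratory complex I, had 17259 in heat and 18899 in control, a difference of -0.092. Dnajc28 had 177 in heat and 153 in control, a difference of 0.24 and the highest of this group. Dnajc30 had 4973 in heat and 4719 in control, a difference of 0.11, and Dnajc4 stood at 0.060.

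Dnajc19, a part of the motor that pulls proteins into mitochondria, had a bright probe with 25073 in heat and 26458 in control, and a gene difference of -0.0057 over 3 probes. A probe outside the family rule, described as Dnajc19 but named in the files by an Ensembl transcript, had 183 in heat and 162 in control.

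The list for ribosome, nucleus and splicing had 8 measured genes of 8, with 4 higher and 4 lower in heat and a median of -0.012. It also holds Dnajc1, described above. Dnajc21, which acts in the maturation of the large ribosomal subunit, was the lowest at -0.10 and lower on all 4 probes, 1 of them past the software error with 641 in heat and 776 in control. Dnajc2 (zuotin), which works at the ribosome's exit site, had 1719 in heat and 1848 in control on its measured probe, a difference of -0.066. Its second probe was above background in heat alone, with 28.5 in heat and 20.5 in control.

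Dnajc9, a chaperone of histones H3 and H4, had 14901 in heat and 16306 in control on its bright probe and a gene difference of -0.027. Dnajc8 and Dnajc17, both linked to splicing, had differences of 0.0029 and 0.14. Dnajc14, a membrane J protein of the endoplasmic reticulum that had been placed on this list, was at 0.14 as well, higher on both its probes. Dnajc7, a cytosolic protein with TPR repeats that bind HSP70 and HSP90, had 10231 and 2867 in heat, against 10598 and 2873 in control, and a difference of 0.012. Except for the probe of Dnajc21, the measured probes of these genes lay within the software error.

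Of the 6 genes listed for vesicles and endocytosis, 4 were measured, 3 higher and 1 lower in heat, with a median of 0.11. The members at either end of the whole family, Dnajc5g and Dnajc27, are both on this list. Dnajc5g, a testis relative of the cysteine string protein, had 70.7 in heat and 48.9 in control, a difference of 0.57. Dnajc27, a Rab-like small GTPase with a J domain, had 60.1 and 304 in heat, against 82.0 and 337 in control, with probe differences of -0.41 and -0.11 and a gene difference of -0.26. Both of its probes were lower, and the dimmer one was past the software error.
Dnajc5g, chr5:31414070-31414129, plus strand: ctcctgttcttaaaagaaatccctgctgct
Dnajc27, dimmer probe, chr12:4108952-4109011, plus strand: tggtttctttagtctctcagcagagcatta

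Dnajc5, the cysteine string protein of secretory vesicles, had 8186 and 1054 in heat, against 8151 and 1049 in control, and a difference of 0.046. Its remaining probe was called above background in heat alone, with 44.4 in heat and 29.2 in control. Dnajc13 (RME-8), which acts in sorting at endosomes, had 2278 and 322 in heat, against 2052 and 295 in control, and a difference of 0.18 with both measured probes higher.

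The testis list had 3 measured genes of 6, with a median of 0.48 that is the value of Dnajb8 itself. Dnajb8, a suppressor of protein aggregation known from testis, had 62.3 in heat and 46.0 in control. Dnajb3, the remaining measured gene besides Dnajc5g, had 68.9 in heat and 72.8 in control, a difference of -0.039. All 3 genes were measured by 1 dim probe, where the central range of all probes was widest.
Dnajb8, chr6:88173124-88173183, plus strand: tcaatggcaaggagaagctcatgagggtgg

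The genes not placed in a role group were Dnajc12, Dnajc24 and Dnajc22. Dnajc12, a co-chaperone of the aromatic amino acid hydroxylases, had 1853 in heat and 2030 in control, a difference of -0.093. Dnajc24, which takes part in making the diphthamide residue of elongation factor 2, had 2725 and 1056 in heat, against 3080 and 1063 in control, a difference of -0.055 with probes of opposite sign. Dnajc22 was below background on both arrays.

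Different probes of a gene could be compared for 23 of the 39 measured genes. In 13 of these all probes had the same sign (52.3% of all genes with several measured probes did), 7 with all lower (24.6%) and 6 with all higher (27.7%). In 10 genes the signs were mixed, and in 2 of those, Dnajb4 and Dnajc1, the probes lay at least 0.3 apart. The other 16 measured genes rested on 1 probe.

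The HSP70 and HSP110 chaperones that J proteins serve were examined beside them. Of 15 genes, 13 were above background in heat and 12 in control. Of the 12 measured, 4 were higher and 8 lower in heat, with a median of -0.049. Among all measured genes, 52.2% were higher and 47.8% lower. The stress-inducible Hspa1a and Hspa1b were higher by 0.28 and 0.31, each on 1 probe. They are near-identical copies, so their probes may not tell them apart. Hspa8, the constitutive cytosolic HSP70 and main partner of Dnaja1 and Dnajb1, had a difference of -0.093, and Hspa5 (BiP), partner of the J proteins of the endoplasmic reticulum, had -0.049. Hspa9, the mitochondrial partner of Dnaja3, had -0.083. The remaining higher genes of the list were Hyou1 at 0.22 and Hspa4l at 0.13, each over 4 measured probes. Hsph1, an exchange factor of the HSP110 family, had -0.30. Hspa13, a microsomal relative, had -0.68 on 1 measured probe of 2 and was the gene of the list past 0.5.

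The other exchange factors and regulators of HSP70 were all measured, with 5 of 13 higher and 8 lower and a median of -0.055. Bag3, a stress-inducible exchange factor, stood at -0.23, and Hspb1, a small heat shock protein kept on this list, at 0.12, each on 1 probe. Among J proteins whose names do not begin with Dnaj, the differences were -0.15 for Sec63, 0.033 for Gak and 0.031 for Hscb.

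**Figure D4:**
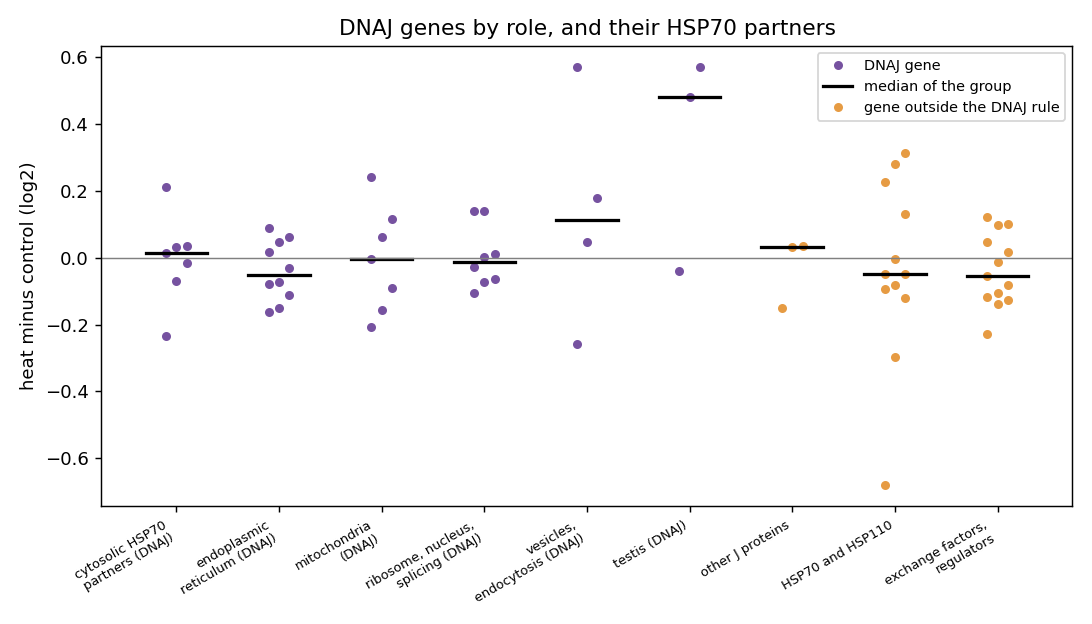
Heat minus control (log2, scaled) of measured genes by role group of the DNAJ family and for HSP70 and HSP110 chaperones and exchange factors. Points are genes and bars are medians, which run between -0.055 for the exchange factors and 0.48 for the testis list; that list has 3 measured genes.

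Promoters were searched for the letters of the heat shock element, the binding site of heat shock factors, in RefSeq windows of GRCm38.p6 that hold 250 bases before and 50 bases after a gene's start. The short form searched was GAANNTTC or TTCNNGAA, each of which is its own reverse complement. The long form was a short form that continues, after NN, with the triplet it began with. Both strands are thus covered, and each long match contains a short one. Of the 45 members, 37 had such a window, 50 windows in all. The long form was found in 2 of the 50 windows (4%), both of Dnajb6 and both holding the same site, and in 0.603% of 32851 windows of all genes. The short form was found in 8 of the 50 windows (16%), of 7 genes, and in 15.1% of all windows.

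The genes with a short match were Dnaja1, Dnaja4, Dnajb4, Dnajb6, Dnajc10, Dnajc27 and Dnajc5g. They include the genes at both ends of the family, Dnajc5g at 0.57 and Dnajc27 at -0.26. The windows of Dnajb1 had no match, which says only that these letters are not in them. Dnajb6 holds the long form. Dnaja4 and Dnaja1 had dim probes called above background in heat alone, from which no direction is read. Dnajc2 and Dnajc5 also had such a probe and are not among the genes with a match. A link between a match and heat was not tested. The matches of Dnajb6, Dnaja4 and Dnaja1 are printed with the bases around them, capitals marking the matched letters.
Dnajb6, chr5:29735822-29735894, plus strand: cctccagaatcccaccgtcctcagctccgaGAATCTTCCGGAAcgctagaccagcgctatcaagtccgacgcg
Dnaja4, chr9:54699439-54699544, plus strand: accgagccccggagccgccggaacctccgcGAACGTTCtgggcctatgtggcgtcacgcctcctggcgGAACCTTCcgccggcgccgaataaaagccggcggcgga
Dnaja1, chr4:40722314-40722381, plus strand: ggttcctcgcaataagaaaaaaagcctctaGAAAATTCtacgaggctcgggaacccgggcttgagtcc

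The site of Dnajb6 lies 46 and 127 bases upstream of the gene's 2 annotated starts, and the gene's 5 probes were all lower in heat, at a mean of -0.071. Dnaja4 has 2 short matches, 90 and 52 bases upstream of its start. The match of Dnaja1 lies 124 bases upstream, and its bright probe had a difference of -0.016. A match of letters is a description and not a shown binding site.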

How the data were processed

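RNA from a heated and a control sample of mouse blood was labelled with Cy3 and hybridised to 1 array each, per the labels. The deposited scanner files hold linear intensity values and other spot flags, per the file headers, which name Agilent Feature Extraction 10.7.1.1; the submitters' processing notes name version 9.1. The authors' deposited value table holds log2 values that matched quantile-normalized log2 processed signals of the same arrays. The median was 5.26 in each column. With those values 20 DNAJ genes were higher and 19 lower in heat, against 19 higher and 20 lower as reported above.

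Outlier spots were left out, spots of a probe were averaged after log2 of the processed signal, and each array's 75th percentile over probes was subtracted. The software's flag for signal well above background had to hold for over 0.5 of a probe's spots. Genes were named through unversioned accessions in a RefSeq table, otherwise as in the files, and DNAJ members by the name in the files. The named genes are the members themselves and the listed partners. Members and lists were chosen with earlier results of these data known. No test was possible with 1 array per group. Of the steps, only the averaging of probe differences into genes was tested on simulated data. The planted differences were larger than that of any measured DNAJ gene. Alternatives covered background correction (normexp, offset 50), normalization, dim probes, probe summaries and the authors' table. Protein sequences and exon annotation were not used here. A further J protein was not analysed here. R 4.3.3 with limma 3.58.1, and Python 3.11.15 with numpy 2.4.6 and pandas 2.3.3, were used. The number of arrays limits the precision.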

Additional observations from a re-analysis of the deposited data

Results flagged for a closer look

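A probe outside the family rule, described as Dnajc19 and named in the files by an Ensembl transcript, was well above background on both arrays and gave a heat minus control difference of 0.22 on the log2 scale. It is listed because it carries signal but enters none of the counts; the 3 Dnajc19 probes inside the rule averaged -0.0057. The difference has no replicate.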

How the results depend on the processing

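Over 13 alternatives for the differences, 499 values of single DNAJ genes were recomputed; 466 moved by less than the spot SD of 0.084 and 33 by more. Of the 39 genes, 23 kept 1 sign under every alternative run (10 higher, 13 lower) and 16 changed sign. Of 244 summary values, 234 stayed close to the reported ones and 10 moved. Close meant a median that moved by less than the spot SD, or a count of similar size. Most of the medians are smaller than that SD, so a change of sign can count as close. The median of subfamily C was 0.0029 as reported and -0.039 with the brightest probe per gene. The split of 13 higher and 26 lower with no scaling also counted as close. The number of DNAJ genes at least 0.5 higher was 0 under normexp with the 75th percentile, normexp with quantile normalization, the brighter 50% of detected probes and a signal of at least 100 on both arrays (the last chosen after seeing the data); Dnajc5g ran between 0.27 and 0.57 and Dnajb8 between 0.21 and 0.48, while Dnajc27 ran between -0.30 and -0.088. The testis median was 0.27 under normexp with the 75th percentile, 0.21 under normexp with quantile normalization and 0.19 with all probes kept. With all probes kept, the median of subfamily A was -0.072, that of the vesicle list 0.22, and 1 gene (Dnajc6, below background on both arrays) was at least 0.5 lower; Dnajb5 turned to -0.27 and the median of all genes was then -0.098. The cause of these shifts was not tested. Dnajb1 ran between -0.039 and 0.043. Detection rested on the software's flag, and dim probes limit what can be measured. No paired analysis was possible because each group holds 1 array, and no array could be left out.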
